A study of Mus musculus with 10 samples.

Results

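The mouse miRNAs named miR-297, miR-466, miR-467 and miR-669 come in large part from a dense run of hairpins inside an intron of the gene Sfmbt2. Every miRNA of the array whose name carries one of these 4 family numbers, with any letter, copy number or arm, was taken as a member. There were 71 members among the 1892 miRNAs of the array: 4 of miR-297, 27 of miR-466, 13 of miR-467 and 27 of miR-669. Of these, 53 were bright enough to be tested, among 476 tested miRNAs in all. By name, 30 members are 5p arms, 29 are 3p arms and 12 carry no arm.

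Total RNA from 10 male mouse liver cell culture samples was measured, 5 named T-C cell and 5 named control cell. T-C cell samples have the source Col-/- (also spelt Col -/-), and control cell samples have the source Control Col. All 10 are described as sle liver and share 1 treatment text, which gives 0.5 mg of TN-CF for 100000 T-C cells in a dish over 24 h, and a control. The design text of the series speaks of T-C cells treated with TB-CF, and what T-C, Col, sle, TN-CF and TB-CF stand for is not stated in the sources used here. The comparison asks which miRNAs differ between T-C cell and control cell samples. Since the groups differ in their source as well as in their names, effects of source and of treatment cannot be told apart. No label says that samples came from separate animals or cultures, so p-values measure only the spread between these samples.

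A miRNA gene is transcribed as a long precursor that folds into hairpins. Each hairpin is cut into a duplex, and either strand, the 5p or the 3p arm, can be loaded into an Argonaute protein. Bases 2 to 8 of the loaded strand form the seed, which pairs with target mRNAs. Sfmbt2 encodes a Polycomb-group protein. In mouse it is an imprinted gene, expressed from the paternal allele in extraembryonic tissue, and its intronic miRNAs are best known from the placenta. Members of these families have also been described in other settings: miR-669a as a repressor of MyoD in cardiac progenitors, miR-466h as a promoter of apoptosis in nutrient-depleted cultured cells, and miR-467b as a regulator of lipoprotein lipase.

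The results turn on 2 sequence types, so the mature sequences of the miRNAs described most are given here from the deposited array files, with the seed in capitals. The first set holds the 3p arms of miR-467 and the miRNAs nearest to them, rich in A and C.
miR-467a-3p: cAUAUACAuacacacaccuaca
miR-467d-3p: aUAUACAUacacacaccuacac
miR-467b-3p: aUAUACAUacacacaccaacac
miR-467c-3p: aUAUACAUacacacaccuauac
miR-467e-3p: aUAUACAUacacacaccuauau
miR-467f: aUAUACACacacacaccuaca
miR-669d-2-3p: aUAUACAUacacacccauauac
The second set holds 5p arms of miR-466 and miR-669, rich in U and G.
miR-466b-5p: uGAUGUGUguguacauguacau
miR-466c-5p: uGAUGUGUgugugcauguacauau
miR-669o-5p: uAGUUGUGugugcauguuuaugu
miR-669f-5p: aGUUGUGUgugcaugugcaugugu
The third set holds 3p arms of miR-466 and miR-669 that are as rich in A and C as the first set but lack the CC pair near the 3′ end.
miR-466f-3p: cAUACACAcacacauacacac
miR-466h-3p: uACGCACGcacacacacac
miR-669a-3p: aCAUAACAuacacacacacguau

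The 71 members fell into 42 seeds, and 44 members shared a seed with at least 1 other member. The seed UAUACAU was the most common, in 7 members: miR-467b-3p, miR-467c-3p, miR-467d-3p, miR-467e-3p, miR-669d-2-3p, miR-669l-3p and miR-669m-3p. The sequences are close to each other: 24 members were within 1 edit of another member and 57 within 3. With positions counted from the 5′ end of miR-467d-3p, miR-467b-3p differs by U18A, miR-467c-3p by C20U, and miR-467e-3p by C20U and C22U. How far each probe also bound its near relatives was not tested, so values of close members are uncertain as values of single miRNAs.

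The label of an Sfmbt2 intron cluster held for most members but not for all. Matched to the annotated miRNAs of GENCODE M21 (GRCm38), 58 members lay only inside Sfmbt2 (chr2:10370510-10595253, plus strand), 4 lay inside it and elsewhere, and 9 lay only elsewhere. The 71 annotated hairpins inside the gene that carry a miRNA symbol all belong to these 4 families, and all lie within intron 10 of the 23-exon transcript Sfmbt2-201, over 51.6 kb from 10466663 to 10518279. The 9 members outside were miR-466i-3p, miR-466i-5p, miR-466j, miR-466k, miR-466q, miR-467f, miR-467g, miR-467h and miR-669n. Of these, miR-467f lies on the minus strand within Fxr2 (chr11:69635419-69635439) and miR-466i-3p within Cdk13 on chromosome 13. Genes other than Sfmbt2 are given here and below by position only, and their strand was not compared with that of the miRNA. The miR-466i-5p sequence consists of U and G only and matched 61 annotated hairpins, none of them inside Sfmbt2, and several of these at overlapping positions.

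MiR-467a-3p and miR-467d-3p are read from the same hairpins. Both matched 12 hairpins, the same 12, with miR-467d-3p starting 1 base later at each.
The hairpin Mir669o (chr2:10514300-10514395, plus strand) is shown 5′ to 3′ with miR-669o-5p and miR-669a-3p in capitals. It is shown because its pair of probes passed the test of arm balance described below. The 3p sequence is 1 that 13 annotated hairpins share.
Mir669o: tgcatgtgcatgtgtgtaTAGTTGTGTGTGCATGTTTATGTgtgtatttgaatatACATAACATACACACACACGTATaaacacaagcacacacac

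A miRNA counted as detected on an array where its 2 spots averaged more than the blank level, taken as the mean of 16 blank spots plus 3 SD, a limit that ranged from 64.0 to 474 units of raw spot brightness. Members were detected more often than other miRNAs, with 74.6% of the 71 tested against 23.2% of the 1821 others. On all 10 arrays 29 members were detected, and 8 were detected on none. Detected members per array numbered 49 ± 11.8 (SD, n = 5) on the T-C cell arrays, against 49.2 ± 9.8 (SD, n = 5) on the control cell arrays, from 29 on T-C cell replicate 3, the array with the highest limit, to 63 on control cell replicate 5, the array with the lowest. T-C cell replicate 1 stood apart: the median raw intensity of the members was 869 on it and from 334 to 434 on the other 9 arrays. The array number in its file header also lies below those of all control cell arrays, while the remaining T-C cell arrays have numbers above them. The sources used here do not say what these numbers count, so a run order and the groups cannot be told apart.

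Markers of cell types were read beside the members. The hepatocyte marker miR-122-5p was detected on 1 of 10 arrays, at 57.8 to 193, although the samples are labelled as liver cells. The other 2 markers listed for hepatocytes, miR-192-5p and miR-194-5p, which gut epithelium also expresses, were detected on all 10 arrays, at 7608 to 18241 and 6697 to 20165. All 5 markers of fibroblasts and stellate cells and all 5 of epithelium and bile duct were detected on all 10 arrays. The 3 blood cell markers on the array summed in raw intensity to 2619 to 5157 on the T-C cell arrays, against 1799 to 2538 on the control cell arrays, and 1 of them, miR-150-5p, rose by 0.86 on the log2 scale (limma adjusted p = 0.0433). The 3 muscle markers summed to 1855 to 2859 on the T-C cell arrays, against 2608 to 2998 on the control cell arrays, and none passed. For the 2 endothelial markers the sums were 2873 to 5221 and 3023 to 3910. Of 6 stem cell and trophoblast markers none was bright enough to be tested, and 3 were detected on no array. The part of cell makeup in the results was not tested, and in such bulk samples fewer cells of a type and less RNA per cell cannot be told apart.

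In the comparison of T-C cell with control cell samples, 2 of the 3p arms of miR-467 fell, and 5p arms of miR-466 and miR-669 lay a little higher without passing the test. Differences are on the log2 scale of normalized intensity, T-C cell minus control cell. Of the 53 tested members, 2 fell at an adjusted p under 0.05 (limma, Benjamini-Hochberg over all 476), miR-467a-3p and miR-467d-3p, and none rose. Over all tested miRNAs, 6.30% fell and 1.47% rose. At an unadjusted p under 0.05, 4 members were lower and 9 higher, where 12.0% and 6.30% of all tested miRNAs were. The share of members that fell, 3.77%, was below that of all tested miRNAs. The median difference was 0.03 over the members and 0.02 over all tested miRNAs.

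The 3 differences largest in size among the tested members belonged to 3p arms of miR-467, miR-467a-3p, miR-467d-3p and miR-467b-3p. MiR-467b-3p had the highest mean raw intensity of the members, 7143, rank 16 of the array, followed by miR-467d-3p at 5026. Raw intensities are compared here as brightness of different probes, not as amounts of RNA.

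MiR-467a-3p had raw intensities of 2257, 2112.5, 893, 2350.1 and 2199.8 on T-C cell replicates 1 to 5, against 4341, 4052, 4313, 2084 and 5634 on control cell replicates 1 to 5. The groups overlapped: control cell replicate 4 lay among the T-C cell arrays, while the other 4 control cell arrays were above every T-C cell array. Its normalized level was 10.83 ± 0.45 on the T-C cell arrays, against 11.93 ± 0.48 on the control cell arrays (SD, n = 5 each), a fall of 1.10 (SE 0.27, limma adjusted p = 0.0400). That is a level 2.14-fold lower, with a 95% interval from 1.43 to 3.21.

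MiR-467d-3p, cut from the same hairpins, had raw intensities of 3212, 3511, 1704.5, 4509.5 and 4139 on the T-C cell arrays and 7538, 6869.6, 7253, 3291 and 8228 on the control cell arrays. Again control cell replicate 4 was the only control cell array within the range of the T-C cell arrays. Its normalized level fell by 0.98 (SE 0.27, limma adjusted p = 0.0480), from 12.60 ± 0.49 to 11.62 ± 0.47 (SD, n = 5 each). Since the pair differs by a shift of 1 base, the 2 calls are not 2 separate findings.

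MiR-467b-3p came from a single hairpin (Mir467b, mature arm at chr2:10481293-10481314) and shares its seed with miR-467d-3p. Its raw intensities were 4109, 5172.5, 2535, 6852.5 and 6614 on the T-C cell arrays, against 10333, 10487, 9919.5, 5077 and 10329 on the control cell arrays. The normalized difference was -0.91 (SE 0.28, limma adjusted p = 0.0668), so it missed the threshold. Control cell replicate 4 was again the lowest control cell array.

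MiR-467c-3p and miR-467e-3p share the seed of miR-467d-3p but end differently, and their differences were smaller. MiR-467c-3p had raw intensities of 1618, 1301, 674, 1246 and 1074 on the T-C cell arrays, against 1299, 1164.5, 1257, 1190.1 and 2108 on the control cell arrays, a normalized difference of -0.33 (SE 0.20, limma adjusted p = 0.487), or -0.18 without control cell replicate 5. MiR-467e-3p differed by -0.13 (SE 0.17, limma adjusted p = 0.766). Within an array, the normalized level of miR-467c-3p minus that of miR-467d-3p was -1.46 ± 0.37 on the T-C cell arrays, against -2.11 ± 0.51 on the control cell arrays (SD, n = 5 each), and for miR-467e-3p minus miR-467d-3p the values were -1.69 ± 0.41 and -2.53 ± 0.53. The groups overlapped for both, and control cell replicate 4 lay within the range of the T-C cell arrays, at -1.38 and -1.66. For miR-467c-3p minus miR-467d-3p, control cell replicate 5 also lay within that range, at -1.765. These differences between miR-467 members were not tested.

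MiR-467f, which lies in Fxr2 and not in Sfmbt2, ends with the same CCUACA as miR-467a-3p. Its raw intensities were 4150.1, 3377, 2266, 4083 and 2828 on the T-C cell arrays, against 5031, 4995, 4279.5, 2883 and 5408 on the control cell arrays. The difference of its normalized level was -0.47 (SE 0.17, limma adjusted p = 0.134).

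The 5p arms of miR-467 were all too dim to be tested. MiR-467a-5p and miR-467d-5p, the partners of the 2 arms that fell, were detected on no array, at 63.1 to 239 and 60 to 230.1. Over the 5 untested 5p arms of miR-467, mean raw intensities were 137 to 158. A change of the 3p arms against their own 5p arms was therefore not measurable here.

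**Figure D1:**
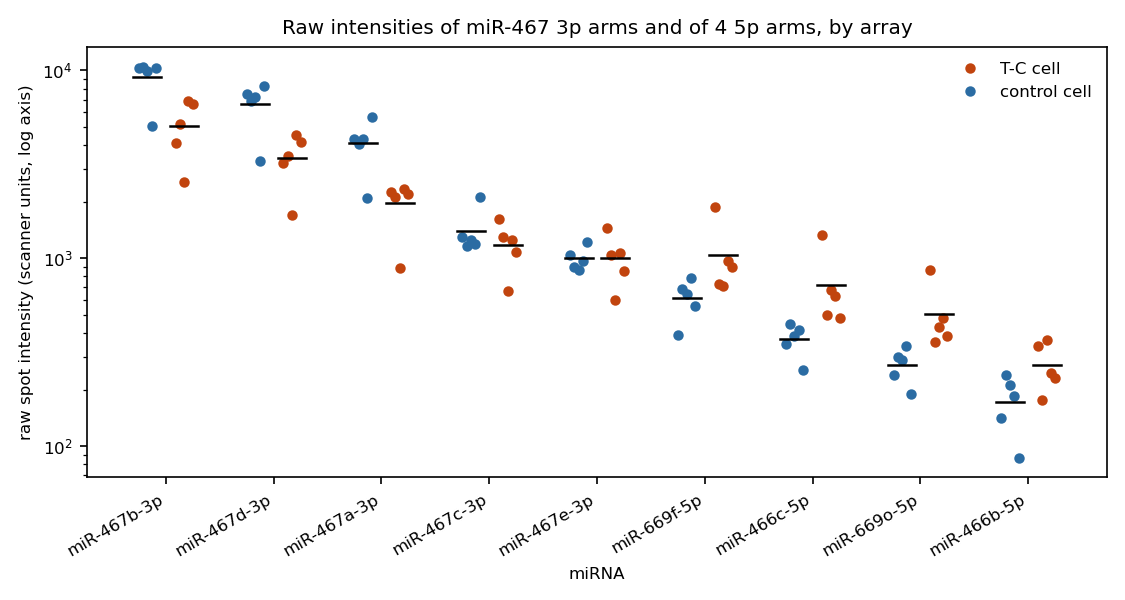
Raw spot intensity (scanner units, log axis) of the 5 miR-467 3p arms and of 4 5p arms of miR-466 and miR-669 on each array. Points are arrays, 5 per group, and black lines are group means. For miR-467a-3p, miR-467b-3p and miR-467d-3p, 4 control cell arrays lie above every T-C cell array and control cell replicate 4 does not.

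Both calls on miR-467 depended on the arrays kept. Leaving out 1 array at a time, miR-467a-3p passed without T-C cell replicate 2, 3 or 5 or control cell replicate 4, and did not pass without any of the other 6 arrays (limma adjusted p = 0.0743 to 0.0965). MiR-467d-3p passed without T-C cell replicate 5 (limma adjusted p = 0.0390) and also without the control cell replicate 4 array (limma adjusted p = 0.00702), and its adjusted p without each of the other 8 arrays was 0.0683 to 0.127. The differences kept their sign in these omissions, from -1.30 to -0.93 for miR-467a-3p and from -1.20 to -0.82 for miR-467d-3p. Both also missed the threshold after median centring, without normalization, with the blanks subtracted and under looser detection filters (limma adjusted p = 0.0550 to 0.431). Without control cell replicate 4, 5 members passed: miR-467a-3p, miR-467b-3p, miR-467d-3p and miR-467f lower, and miR-669o-5p higher. Calls over all 476 tested miRNAs also moved, from 37 to 43 without control cell replicate 4. They numbered 1 to 12 without T-C cell replicate 1 or 4 or control cell replicate 1, 2, 3 or 5.

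The 5p arms of miR-466, miR-669 and miR-297 lay above 0 without exception among those tested. All 18 tested 5p arms had a difference above 0, from 0.17 to 0.69 with a median of 0.32, and none passed the test. Over all tested miRNAs 52.9% lay above 0. Many of the 18 arms were dim: 7 were detected on all 10 arrays, and miR-466a-5p, miR-466b-5p and miR-466p-5p on only 5. The 8 tested 5p arms of miR-466 had a median difference of 0.33, and so did the 9 of miR-669. These arms are near copies of each other measured on the same arrays, so they are not 18 separate measurements. After quantile normalization in place of cyclic loess, 5 of them passed: miR-466a-5p, miR-466b-5p, miR-466c-5p, miR-669a-5p and miR-669o-5p. Over all 476 tested miRNAs, 14 then rose, against 7 after cyclic loess.

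MiR-466c-5p had the largest difference among the 5p arms. Its raw intensities were 1323, 501, 682, 633 and 478 on the T-C cell arrays, against 349.7, 449, 387, 416 and 254 on the control cell arrays. The groups did not overlap, and replicate 1 was the highest T-C cell array. The difference of its normalized level was 0.69 (SE 0.21, limma adjusted p = 0.0638).

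MiR-669o-5p was detected on 7 of 10 arrays. Its raw intensities were 869, 357, 430.2, 482 and 388 on the T-C cell arrays, against 239, 297.2, 287, 342 and 190.0 on the control cell arrays. Every T-C cell array was above every control cell array, and the normalized difference was 0.60 (SE 0.17, limma adjusted p = 0.0527).

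MiR-466b-5p, which has the seed of miR-466c-5p, was the third of the 3 tested members whose normalized levels did not overlap between the groups. It was detected on 5 of 10 arrays, with raw intensities of 341, 175, 368, 245 and 230.3 on the T-C cell arrays, against 141.5, 238, 210.3, 185 and 86.7 on the control cell arrays. These raw values did overlap, and several lay under the detection limit of their array. The difference of its normalized level was 0.37 (SE 0.11, limma adjusted p = 0.0666). The 3 members without overlap are 5.66% of those tested, where 3.78% of all tested miRNAs did not overlap.

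Averaged over the 18 tested 5p arms, the normalized level was 9.20 ± 0.31 on the T-C cell arrays, against 8.82 ± 0.12 on the control cell arrays (SD, n = 5 each), a difference of 0.38. T-C cell replicate 1 was highest at 9.72, and T-C cell replicate 4, at 8.90, lay below 2 control cell arrays, replicates 2 and 4. When T-C cell replicate 1 was left out, the difference was 0.23, and 15 of the 18 remained above 0. The 3 that changed sign were miR-297a-5p, at -0.11, miR-466h-5p, at -0.02, and miR-669e-5p, at -0.03.

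**Figure D2:**
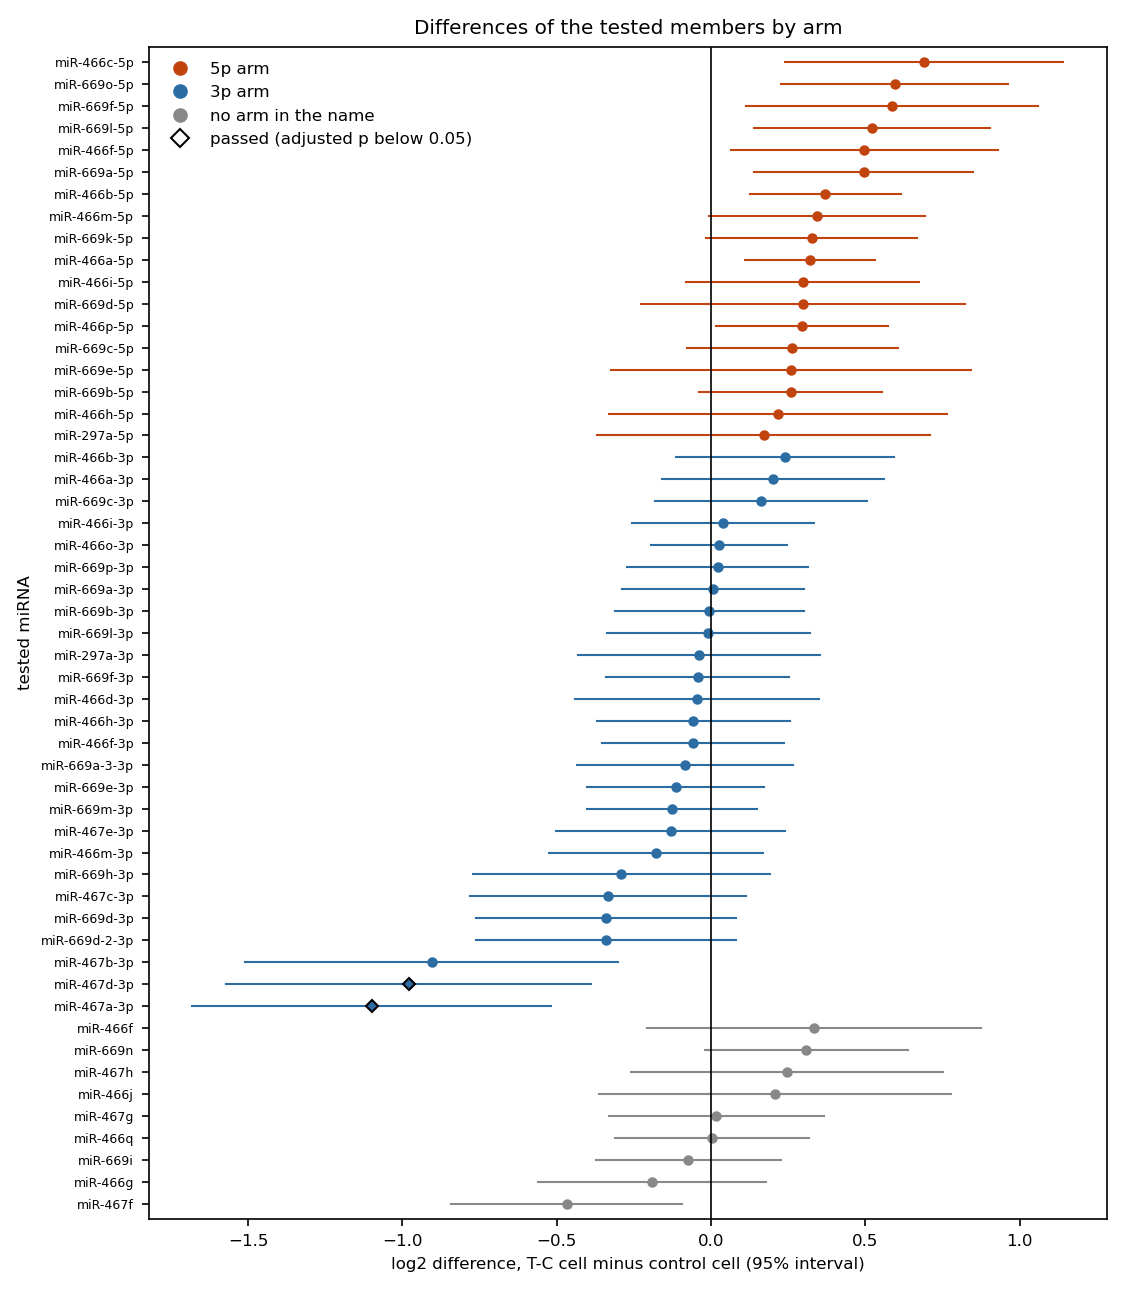
Log2 difference of normalized intensity, T-C cell minus control cell, for the 53 tested members, grouped by arm and ordered by size. Points are differences, lines are 95% intervals from limma, and diamonds mark the 2 members that passed. All 18 5p arms lie to the right of 0, and the 3 lowest values belong to miR-467 3p arms.

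The 3p arms of miR-466 and miR-669 ran from dim to bright, with mean raw intensities of 134 to 3803 and 146 to 3145, and 1 arm of each family was detected on no array. Of the 8 tested 3p arms of miR-466, 4 lay above and 4 below 0, with a median of -0.01. MiR-466f-3p had raw intensities of 4562, 3681, 2912, 4428 and 3310.1 on the T-C cell arrays, against 4221, 4066, 3459, 2975 and 4418 on the control cell arrays, and its normalized level differed by -0.06 (95% interval -0.35 to 0.24). MiR-466h-3p differed by -0.06 (95% interval -0.37 to 0.26). The highest 3p arm of miR-466 was miR-466b-3p, at 0.24 (SE 0.16), and the lowest was miR-466m-3p, at -0.18 (SE 0.16), and neither passed.

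Of the 12 tested 3p arms of miR-669, 3 lay above and 9 below 0, with a median of -0.06. MiR-669a-3p differed by 0.01 (95% interval -0.29 to 0.30). The 3p arms of miR-669 ranged from -0.34 for miR-669d-2-3p (SE 0.19, limma adjusted p = 0.431) to 0.16 for miR-669c-3p (SE 0.16). Among the 3 miR-669 members with the seed of miR-467d-3p, miR-669d-2-3p differed by -0.34, miR-669m-3p by -0.13 and miR-669l-3p by -0.01, and whether they differ from miR-467d-3p was not tested. MiR-669f-3p and miR-669b-3p share the seed AUAUACA with miR-467a-3p, and they differed by -0.04 and -0.01.

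MiR-297 had 2 tested members. MiR-297a-5p differed by 0.17 (SE 0.25) and miR-297a-3p, whose probe stands for 3 mature miRNAs, by -0.04 (SE 0.18). On T-C cell replicate 1 the raw intensity of miR-297a-5p was 925, and on the other 9 arrays it was 234 to 305. The other members of the family, miR-297b-5p and miR-297c-5p, had mean raw intensities of 145 and 137 and were not tested.

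Members with no arm in the name are described by base composition. Of the 9 tested, the 4 rich in U and G all lay above 0, with a median of 0.28, and the 5 rich in A and C had a median of -0.07. MiR-669n, in Slc30a7, was at 0.31 (SE 0.15, limma adjusted p = 0.311), and miR-466f, which lies inside and outside Sfmbt2, at 0.33 (SE 0.25), or 0.09 without T-C cell replicate 1. MiR-467h, a UG-rich relative of the miR-467 5p arms, was at 0.25 (SE 0.23), with a raw intensity of 687 on T-C cell replicate 1 and 149 to 272 on the other 9 arrays. Without T-C cell replicate 1 its difference was -0.04. MiR-466g was at -0.19 (SE 0.17) and miR-669i at -0.07 (SE 0.14).

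The brightest UG-rich member was miR-466i-5p, with raw intensities of 6009.7, 2843, 3291, 3688.5 and 3545 on the T-C cell arrays, against 2936, 3303.5, 3138, 2590.1 and 2807 on the control cell arrays. Its normalized difference was 0.30 (SE 0.17, limma adjusted p = 0.453). Members outside Sfmbt2 lay on both sides of 0, and none passed: of the 8 tested, 7 lay above 0 and miR-467f below. Among the 7, miR-466q, miR-467g and miR-466i-3p were near 0, at 0.003, 0.02 and 0.04. The share above 0 over all tested miRNAs was 52.9%.

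**Figure D3:**
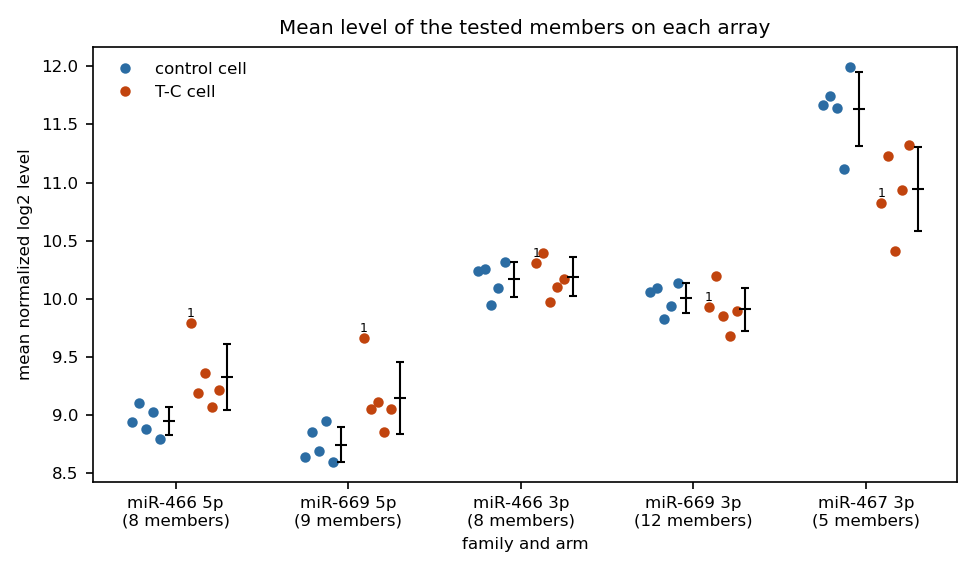
Mean normalized log2 level over the tested members of each family and arm on each array. Points are arrays, error bars are group mean and SD (n = 5 each), and the digit 1 marks T-C cell replicate 1. The 5 miR-467 3p arms average 10.94 ± 0.36 on the T-C cell arrays, against 11.63 ± 0.32 on the control cell arrays, and T-C cell replicate 1 is the highest array for both sets of 5p arms.

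Averaged over the 5 tested 3p arms of miR-467, the normalized level was 10.94 ± 0.36 on the T-C cell arrays, against 11.63 ± 0.32 on the control cell arrays (SD, n = 5 each), a difference of -0.69. The corresponding differences were 0.02 for the 8 miR-466 3p arms and -0.10 for the 12 miR-669 3p arms. The 2 groups of arrays overlapped in each of these means.

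The balance between arms was tested for each hairpin, as the level of its 3p probe minus that of its 5p probe on each array. It could be computed for 75 hairpins of the array, of which 14.7% passed in either direction (limma, adjusted over the 75), and 20 of these were hairpins of the 4 families. All 20 differences lay below 0, meaning less 3p relative to 5p signal in T-C cell samples, with a median of -0.41, and 1 passed. With 1 array left out, 18 to 20 of them lay below 0. For miR-669d, the lowest at -0.64, the balance was -1.22 on T-C cell replicate 1 and 0.0067 to 0.87 on the other T-C cell arrays. The median over all 75 hairpins was -0.21, with 57 of them below 0. At an unadjusted p under 0.05, 8 of the 20 were lower, where 21 of the 75, or 28.0%, were. Several of the 20 share a probe: the probe of miR-466b-3p serves 3 hairpins, and so they are not separate measurements. Some sequences also matched more annotated hairpins than their partner did, such as 15 for miR-466b-3p against 3 for miR-466c-5p. The 2 probes of such a pair do not read the same set of hairpins.

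The hairpin that passed was miR-669o. Its 3p arm exceeded its 5p arm by 2.29 ± 0.23 on the T-C cell arrays and by 2.88 ± 0.27 on the control cell arrays (SD, n = 5 each), a change of -0.59 (SE 0.17, limma adjusted p = 0.0426). The 5p arm differed by 0.60 and the 3p arm, read by the probe of miR-669a-3p, by 0.01. The sequence of miR-669a-3p is shared by 13 annotated hairpins, and that of miR-669o-5p matched 1. The change is therefore not a balance within the miR-669o hairpin alone. The groups overlapped, as for every one of the 20 hairpins, whereas 6 of the 75, or 8.0%, did not overlap. The call ended without T-C cell replicate 1, where the change was -0.46 (limma adjusted p = 0.117), and likewise when any 1 of 7 other arrays was left out, which were T-C cell replicates 3, 4 and 5 and the control cell replicates other than 4 (limma adjusted p = 0.0519 to 0.0918). The next smallest p belonged to miR-466m, at -0.52 (SE 0.17, limma adjusted p = 0.0687).

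**Figure D4:**
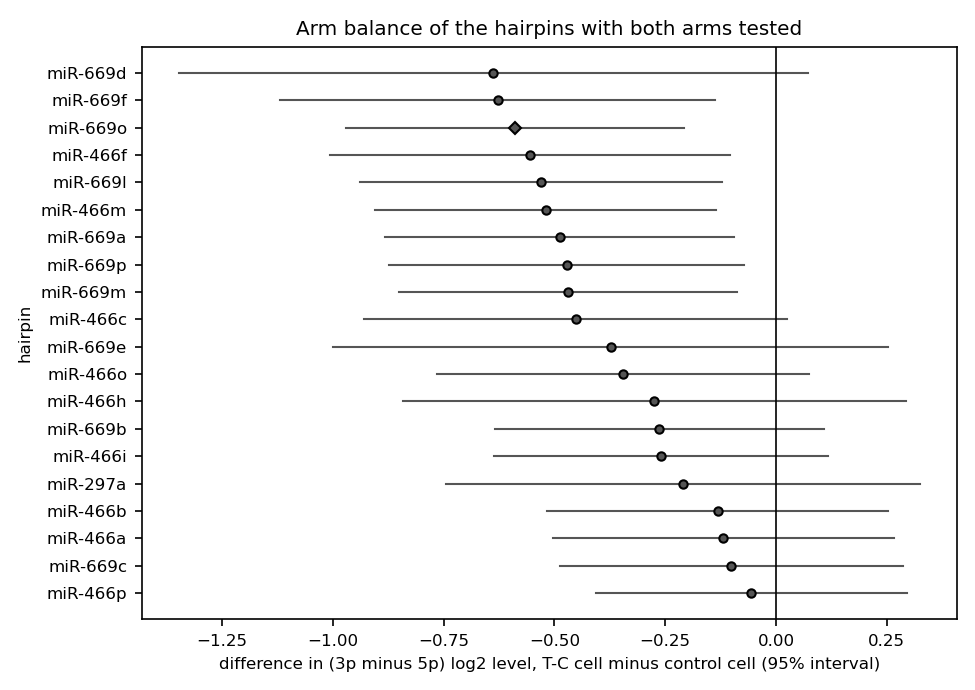
Difference in arm balance, the 3p minus the 5p log2 level, T-C cell minus control cell, for the 20 hairpins with both arms tested. Points are differences, lines are 95% intervals from limma, and the diamond marks miR-669o, which passed. All 20 points lie left of 0, from -0.64 to -0.06.

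Base composition ran parallel to arm. Of the 36 members with more U and G than A and C, 22 were tested, and all 22 lay above 0 with a median of 0.32. Of the 35 with more A and C, 31 were tested, 9 above and 22 below 0 with a median of -0.06. Among tested miRNAs of other families with more than 60% U and G, 74 of 116 lay above 0, with a median of 0.08, and among those under 40%, 27 of 81, with a median of -0.27. Arm and base composition cannot be told apart among members with an arm in the name. Each of their tested 5p arms was rich in U and G and each tested 3p arm in A and C. MiR-466j, with no arm in its name, lies in the second part of its hairpin and is 73.9% U and G. Its difference was 0.21 (SE 0.26).

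Repeat-like letters were then read across the array, on the mature strand only. UGUGUG occurs in 40.8% of members and 2.85% of all miRNAs of the array, and ACACAC in 36.6% and 1.96%. Of 11 tested miRNAs of other families with UGUGUG, 9 lay above 0, with a median of 0.29. The 2 that passed, both higher, were let-7b-5p at 0.68 and let-7k at 1.08, where 1.47% of all tested miRNAs rose. Both are let-7 miRNAs with the seed GAGGUAG, so they are not 2 separate findings. MiR-574-5p, miR-1187, miR-3082-5p and miR-32-3p, which hold longer runs of alternating U and G, lay at 0.29 to 0.39 and did not pass. MiR-672-5p at 0.09, miR-6348 at 0.03, miR-206-3p at -0.06 and miR-3097-5p at -0.14 also hold longer runs and did not pass. Of 8 with ACACAC, 6 lay below 0, with a median of -0.43, and none passed at an adjusted p under 0.05, while 2 were lower at an unadjusted p under 0.05 (limma).

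The trinucleotide ACC, which can overlap ACACAC, was noticed in the lower members after their values were seen. It occurs in 14.1% of members and 20.5% of all miRNAs of the array. All 10 members that hold it were tested and lay below 0, with a median of -0.34, and both members that fell are among them. Several of the 10 are near copies of each other measured on the same arrays, so they are not 10 separate measurements. In the single-array omissions, 8 to 10 of these members lay below 0, and after median centring or without normalization 8 did. The 43 tested members without ACC, which include all 18 tested 5p arms, had a median of 0.21. Among 3p arms alone, the 9 with ACC had a median of -0.34 and the 17 without had -0.04. Outside the miR-467 family, the 4 3p arms with ACC had a median of -0.19 and the 17 without had -0.04. Of 114 tested miRNAs of other families with ACC, 26 fell and 2 rose, and of 309 without it, 2 fell and 5 rose.

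**Figure D5:**
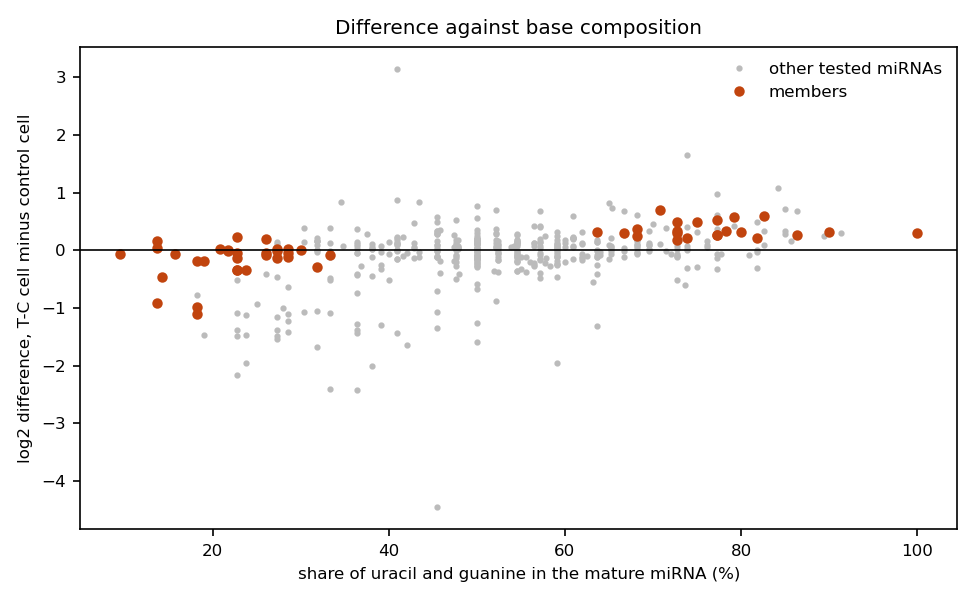
Log2 difference of normalized intensity, T-C cell minus control cell, against the share of uracil and guanine in the mature miRNA (%), for the 476 tested miRNAs. Orange points are the 53 members and grey points the other miRNAs. The 22 members with most uracil and guanine all lie above 0, and no tested member lies between 40 and 60%.

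The imprinted Dlk1-Dio3 region, another large placental miRNA cluster, was read beside these families. Of its 117 miRNAs on the array 21 were tested, a smaller share than for the 4 families. Of the 21, 14 lay below 0, with a median of -0.10, and 1 fell, miR-654-3p, by 1.59 (SE 0.31, limma adjusted p = 0.0351), named with its value known. Over all tested miRNAs, 47.1% lay below 0 and 6.30% fell. The sequence of miR-654-3p holds ACC. No miRNA of another family was annotated by a miRNA symbol inside Sfmbt2.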

How the data were processed

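Per the file headers, each of the 10 deposited files holds the median intensity of each spot, on a linear scale, which the authors deposited with no scaling between arrays. Per the labels' protocols, 1 µg of Trizol-extracted total RNA was tailed with poly(A), tagged and stained with Cy3 by LC Sciences. The sources used here do not name the scanner software or the miRBase release. After adding 50, the log2 values of the 2 spots per miRNA were averaged. Cyclic loess was applied between arrays. The 476 miRNAs detected on at least 5 of 10 arrays were compared with limma 3.58.1 in R 4.3.3 (trended eBayes, two-sided) with Benjamini-Hochberg adjustment and a threshold of 0.05. Arm balance was fitted in the same way without the trend. Sample titles give the groups and the replicate numbers. Positions are matches to GENCODE M21 (GRCm38), counted from 1 (Python 3.11.15).

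The members, lists and rules were chosen with earlier results of these data known. Members named are those that passed, the 6 brightest, the highest and lowest of each family and arm, the tested miR-297 members, the other arms of those that passed, up to 8 that share their seeds, and the hairpins that passed. MiR-466b-5p, miR-467c-3p and the other members, other miRNAs and markers named were chosen with their values known. The number of arrays limits the precision. The procedure was tested on simulated data, and 12 alternative settings and 10 single-array omissions were tried.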

Additional observations from a re-analysis of the deposited data

Results flagged for a closer look

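Of 78 groups of 5 arrays examined for a single array far from the rest, 5 held one, and chance gives about 1 in 20. Control cell replicate 4 was the lowest control cell array for miR-467b-3p, at a normalized log2 level of 12.32 with the nearest at 13.15, and for miR-467d-3p, at 11.72 with the nearest at 12.72. Control cell replicate 5 was the highest control cell array for miR-467c-3p, at 11.12 with the nearest at 10.37. T-C cell replicate 1 was the highest T-C cell array for miR-467h, at 9.38 with the nearest at 8.26. The same array had the highest median raw intensity of the members, 869.2, with the nearest T-C cell array at 434.5.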

How the results depend on the processing

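Against 2 members that passed, 8 passed after quantile normalization (5 higher and 3 lower), 3 when detection on at least 8 arrays was required or arrays were weighted, and 0 after median centring, without normalization, with the blanks subtracted, with detection on at least 3 arrays and with no detection filter. The cause was not tested, except that the last 2 settings test more miRNAs. Leaving out 1 array gave 0 to 5, with 0 without T-C cell replicate 1 or 4 or control cell replicate 1, 2, 3 or 5. Over all 476 tested miRNAs, 37 passed. That count was 12 without T-C cell replicate 1 and 1 without T-C cell replicate 4. Without control cell replicate 1, 2, 3 or 5 it was 1 to 3. It was 47 after quantile normalization, 14 after median centring, 31 without normalization and 3 with the blanks subtracted. With detection on at least 3 arrays 8 of 641 passed, and with no detection filter 1 of 1892. The 1 hairpin that passed for arm balance became 0 after median centring, without normalization, with 200 added, with the blanks subtracted and under every other detection filter, and 0 to 3 when 1 array was left out. Of all 75 hairpins 11 passed, and 0 to 16 when 1 array was left out. The count was 8 after median centring or without normalization, 10 with 200 added and 3 with the blanks subtracted. The number of 5p arms above 0 was 10 of the 10 tested with detection on at least 8 arrays and 15 to 18 with 1 array left out. With the blanks subtracted, the mean difference of the 5p arms was 0.92, and leaving out 1 array gave 0.23 to 0.45. Without normalization the median of all tested miRNAs moved to 0.14.

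With the replicate number as a block, 1 member passed, miR-467a-3p (limma adjusted p = 0.0435), miR-467d-3p did not (limma adjusted p = 0.0645), and 0 hairpins passed. Whether the numbers pair the samples is not stated in the sources used here. Deviations of same-numbered arrays correlated at -0.11, -0.20, 0.06, -0.11 and 0.26. Only T-C cell replicate 5 correlated best with the control cell array of its own number.

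Members near 0 changed sign. The values were 0.052, 0.027 and 0.0022 for miR-669b-3p, miR-669f-3p and miR-669l-3p after quantile normalization, and 0.00064, 0.038 and 0.046 for miR-297a-3p, miR-669b-3p and miR-669l-3p after median centring. Without normalization they were 0.11 for miR-297a-3p, 0.15 for miR-669b-3p, 0.018 for miR-669f-3p, 0.089 for miR-669i, 0.15 for miR-669l-3p and 0.040 for miR-669m-3p. MiR-669b-3p was at 0.010 with 200 added. With the blanks subtracted, miR-466f-3p was at 0.041, miR-466h-3p at 0.039, miR-669b-3p at 0.094, miR-669f-3p at 0.057, miR-669i at 0.040 and miR-669l-3p at 0.18. With array weights, miR-669b-3p was at 0.023 and miR-669l-3p at 0.057. With 1 array left out, ranges that crossed 0 were -0.18 to 0.037 for miR-297a-3p, -0.11 to 0.33 for miR-297a-5p, -0.10 to 0.020 for miR-466h-3p, -0.016 to 0.40 for miR-466h-5p, -0.036 to 0.37 for miR-467h, -0.083 to 0.069 for miR-669b-3p, -0.083 to 0.030 for miR-669f-3p, -0.15 to 0.0092 for miR-669i and -0.14 to 0.059 for miR-669l-3p.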

Other observations

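The hairpin of miR-574 is not a member but carries the same kind of repeat on both arms. Its 5p arm, which holds UGUGUG, had raw intensities of 5076, 2193, 2129, 2593 and 2633 on the T-C cell arrays, against 1993.8, 2565.5, 2172, 2023 and 2042 on the control cell arrays, a normalized difference of 0.30 (SE 0.19, limma adjusted p = 0.506). Its 3p arm, which holds ACACAC and ACC, had raw intensities of 4195, 4372, 1315, 4852 and 3564 on the T-C cell arrays, against 6729.9, 7006, 6207, 3524 and 5688 on the control cell arrays, a difference of -0.78 (SE 0.29, limma adjusted p = 0.134). Control cell replicate 4 was the lowest control cell array for the 3p arm, as it was for miR-467a-3p, miR-467b-3p and miR-467d-3p.

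The seed of miR-467a-5p, AAGUGCC, also occurs in miR-290a-3p and miR-292-3p, and that of miR-467e-5p and miR-467h, UAAGUGU, in miR-668-5p. MiR-1187, outside the 4 families, has the seed AUGUGUG of miR-466a-5p, miR-466e-5p and miR-466p-5p, and its normalized level differed by 0.33 (SE 0.21, limma adjusted p = 0.510), beside 0.32 for miR-466a-5p and 0.30 for miR-466p-5p. MiR-1187, miR-466a-5p and miR-466p-5p were tested and did not pass, and miR-467a-5p, miR-467e-5p and miR-466e-5p were too dim to be tested.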
